A study of Mus musculus with 4 samples.

Results

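The transcripts described here are 10 long noncoding RNAs of the nucleus and of the nucleolar RNA machinery: Malat1, Neat1, Kcnq1ot1 and Meg3, which act in the nucleus as RNAs, and Gas5, Snhg1, Snhg3, Snhg5, Snhg8 and Snhg12, which carry small nucleolar RNAs (snoRNAs) in their introns. They were chosen by gene symbol, and all 10 were among the 14157 genes that the deposited table lists. RNA had been sequenced from 4 esophageal tumours of C57BL/6 mice, induced with the DNA-damaging carcinogen 4NQO. WT 3 and WT 6 were wild type and KO 1 and KO 8 had the genotype S100A14 CKO, so n = 2 per group, and all 4 tumours shared strain and carcinogen. The labels give no age, do not say what CKO stands for or in which cells the gene was deleted, and do not say whether each library is a separate animal, so the p-values here speak only of differences among these 4 samples, which may be technical.

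Malat1 is a long, unspliced RNA that collects in nuclear speckles, the stores of splicing factors. Neat1, its neighbour in the genome, is the scaffold on which paraspeckles form. Kcnq1ot1 and Meg3 are imprinted: Kcnq1ot1 is read from the paternal copy and silences genes beside it, and Meg3 is read from the maternal copy of the Dlk1 domain. The snoRNA hosts are spliced RNAs whose introns release the snoRNAs that guide modification and processing of ribosomal RNA. Many of them, like the messenger RNAs of ribosomal proteins, begin with a terminal oligopyrimidine tract (TOP), and the spliced product is usually translated little and destroyed by nonsense-mediated decay.

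Values are the authors' scaled read counts, in which 1 read is worth 0.193, 0.318, 0.220 and 0.258 in WT 3, WT 6, KO 1 and KO 8. The libraries held 11132019 to 16182109 reads, of which ribosomal RNA took 47.0% to 76.4% and 7SL, the RNA of the signal recognition particle, 3.21% to 28.1%, so that nuclear protein-coding genes had 1052423 to 2107060 reads. S100a14 had 463 and 347 reads in WT 3 and WT 6, 0 in KO 1 and 1 in KO 8. KO 8 stood apart: it was the lowest library for 35.2% of the 12304 genes tested, against 20.3% to 22.8% for each of the other libraries, and the highest for 30.1%, against 20.1% to 29.1%. The basal keratinocyte markers, all 7 of them listed, summed to 22279 and 20655 in WT, 18776 in KO 1 and 4520 in KO 8, and none was at 0 in any library. Krt5 and Krt14 carried that sum, and the others did not all follow: Trp63 had 235, 407, 244 and 241, and Itga6 had 150, 152, 263 and 282, highest in KO 8. The 8 fibroblast markers summed to 130 and 270 in WT, 126 in KO 1 and 903 in KO 8, and the 8 listed skeletal muscle markers to 6.37, 27.0, 24.8 and 462 in the same order. Tnnt3 was at 0 in WT 6, and Myh4 in WT 3 and KO 1. The 8 macrophage markers summed to 35.3, 41.3, 90.6 and 189, none of them at 0. Of these sums, that of the basal markers was lowest in KO 8, and those of the fibroblast, skeletal muscle and macrophage markers were highest there. Among the 10 members, 6 were lowest in KO 8. The 7 suprabasal keratinocyte markers summed to 12175, 3324, 2573 and 137, with Krt1 at 0 in KO 8, so WT 3 was highest. Krt4 and Krt13 carried most of that sum, and Ivl went the other way, at 1.93, 2.54, 4.40 and 5.67. The 5 smooth muscle markers summed to 18.5, 76.9, 132 and 167. Their part in any result was not tested. In such bulk samples, fewer cells of a type and less RNA per cell cannot be told apart.

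The start of a snoRNA host is shown because a TOP begins there. RefSeq places the start of transcription (build GRCm38.p6) at the base after the first 20 of each 50-base window below, and capitals mark a C followed by at least 4 further C or T that begins within 5 bases of that start. The windows are Gas5 at chr1:161035146-161035195 (plus strand), Snhg3 at chr4:132353657-132353706 (minus), Snhg8 at chr3:123508307-123508356 (minus), Snhg12 at chr4:132308658-132308707 (plus), Snhg1 at chr19:8723467-8723516 (plus) and Snhg5 at chr9:88522868-88522917 (minus).
Gas5: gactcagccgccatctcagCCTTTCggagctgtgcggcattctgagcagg
Snhg3: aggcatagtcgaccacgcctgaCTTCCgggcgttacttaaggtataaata
Snhg8: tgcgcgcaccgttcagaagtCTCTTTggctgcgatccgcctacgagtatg
Snhg12: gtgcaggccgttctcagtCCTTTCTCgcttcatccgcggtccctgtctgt
Snhg1: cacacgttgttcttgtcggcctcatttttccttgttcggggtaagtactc
Snhg5: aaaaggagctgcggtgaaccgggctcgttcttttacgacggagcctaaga
Of the 6 hosts, 4 hold such a run, the longest of 8 letters in Snhg12. A second RefSeq start of Gas5, upstream of the window shown, holds none. The run was looked for on the transcribed strand, since a TOP is part of the RNA, and it occurs in 18.3% of all 32851 RefSeq start windows and in 42.9% of the 70 windows of ribosomal protein genes. A match is a run of letters and not a mapped 5′ end, and no match says only that such a run is not at these positions.

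Compared per kilobase of exon, Malat1 stood far above the other members. Its scaled value per kb was 684 ± 303 (SD over the 4 libraries), from 330 in KO 8 to 1065 in KO 1. Snhg8, at 23.2 ± 4.08, and Gas5, at 19.2 ± 7.83, came next and did not differ beyond their spread. Snhg5 (10.1 ± 4.49), Neat1 (8.69 ± 3.96), Snhg1 (6.16 ± 2.59) and Snhg12 (5.37 ± 2.04) followed with ranges that overlapped from one to the next. Snhg3, at 1.91 ± 0.991 per kb, lay below all 4 of these in range. The imprinted pair was lowest, with Kcnq1ot1 at 0.311 ± 0.172 over its 93092 annotated bases and Meg3 at 0.280 ± 0.147, which did not differ beyond their spread. The order of the hosts depends on the length used, since the annotation of Gas5 holds 20 retained-intron transcripts among its 25. With those left out of the length, a choice made after seeing the data, Gas5 reached 85.0 ± 34.6 per kb, above Snhg8 at 32.7 ± 5.76 in every library, and Snhg1 reached 21.1 ± 8.88. Only the length was changed and reads were not recounted, so any reads in the left-out introns still count and these levels may be too high. The 10 genes of snoRNA type in Gas5 lie within its annotated exons and 0 of them are listed, so their reads may count as Gas5.

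**Figure D1:**
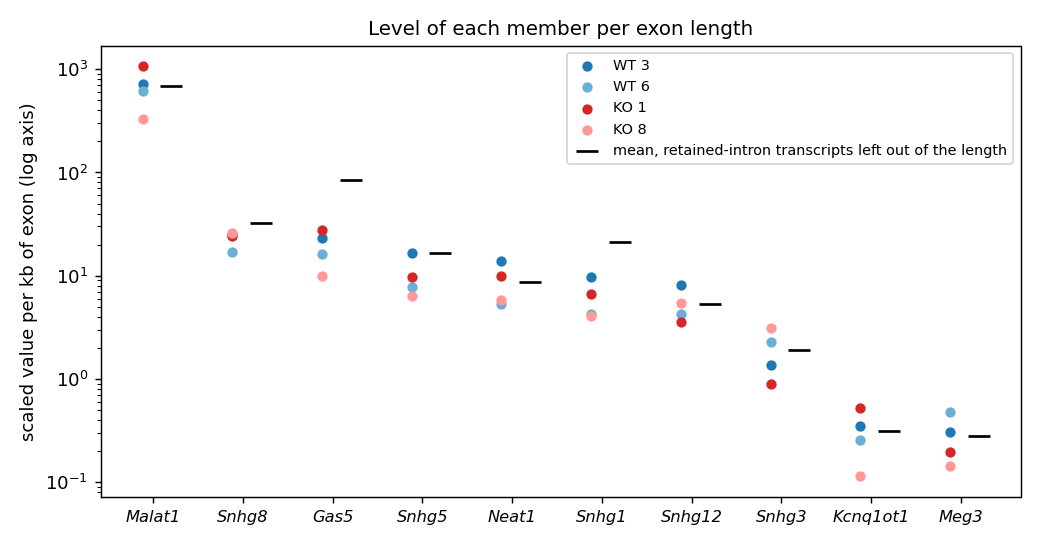
Scaled value per kilobase of exon (log axis) of each member in the 4 libraries (points), with the mean over libraries when retained-intron transcripts are left out of the exon length (dashes). Malat1 lies between 330 and 1065 and Meg3 between 0.142 and 0.474, and the dash of Gas5 moves up to 85.0.

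The levels of Malat1 were widely apart in the KO pair and close together in the WT pair. Its scaled value was 5023 in WT 3, 4347 in WT 6, 7440 in KO 1 and 2305 in KO 8, on 8945 to 33833 reads. The KO libraries thus enclosed both WT libraries, at 1.16-fold between the WT libraries and 3.23-fold between the KO libraries. For each 1000000 reads of nuclear protein-coding genes, Malat1 had 12350, 10608, 22111 and 8499 reads in the same order, so the same libraries were highest and lowest. Kcnq1ot1 took the same order at a lower level, with 32.6 in WT 3, 23.8 in WT 6, 48.8 in KO 1 and 10.6 in KO 8, a 4.62-fold range that was the widest among the 10. Its reads numbered 169, 75, 222 and 41. The number of Malat1 reads for each Kcnq1ot1 read, which no scaling touches, was 154, 182, 152 and 218.

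Neat1 did not follow Malat1. Its scaled value was 285 in WT 3, 110 in WT 6, 206 in KO 1 and 120 in KO 8, so that WT 3 and KO 1 were high, WT 6 and KO 8 were low, and each group held one of either. The suprabasal marker sum was highest in WT 3 (12175) as well, though lowest in KO 8 (137), and its part in the Neat1 values was not tested. For each Neat1 read there were 17.6 Malat1 reads in WT 3, 39.5 in WT 6, 36.0 in KO 1 and 19.2 in KO 8. The ratio of these neighbouring nuclear RNAs thus differed by more within either genotype than between the group means. Ribosomal RNA took 47.0% of the reads in WT 3, 72.6% in WT 6, 76.4% in KO 1 and 50.8% in KO 8. The ratio was therefore low in WT 3 and KO 8, where the share of ribosomal RNA was lower. The share of 7SL was higher in WT 3 and KO 8 than in WT 6 and KO 1. The part of this library make-up in the ratio was not tested.

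Meg3 was the one member whose groups did not overlap. Its scaled value was 5.60 in WT 3 and 8.58 in WT 6, against 3.52 in KO 1 and 2.58 in KO 8. Both KO libraries lay below both WT libraries, as they did for 19.3% of all genes tested, while 33.7% of all genes had groups that did not overlap in either direction. These values rest on 29, 27, 16 and 10 reads, and the 95% Poisson intervals of WT 3 (3.75 to 8.04) and KO 1 (2.01 to 5.71) overlapped. Summed over each pair, the KO read rate was 0.459 of the WT rate, with an exact binomial 95% interval of 0.277 to 0.743 that covers counting error only. The smooth muscle marker sum was higher in both KO libraries (132 and 167) than in both WT libraries (18.5 and 76.9). In KO 8 it rested mainly on Des, at 114 against 1.93, 3.18 and 5.06 in WT 3, WT 6 and KO 1. The skeletal muscle marker sum was highest in KO 8 as well (462). Acta2 overlapped between the groups, at 66.7 in WT 6 and 28.6 in KO 8. Cnn1, Tagln and Myh11, each below Acta2 in every library, were higher in both KO libraries. Jchain, the 1 listed marker of B and plasma cells, had 0 in both WT libraries and 7.92 and 7.99 in KO. The part of these markers in the Meg3 values was not tested. On the exons of Meg3 lie 1228 bases of Gm26906, a gene on the opposite strand, and the sources used here do not say whether counting used strand.

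**Figure D2:**
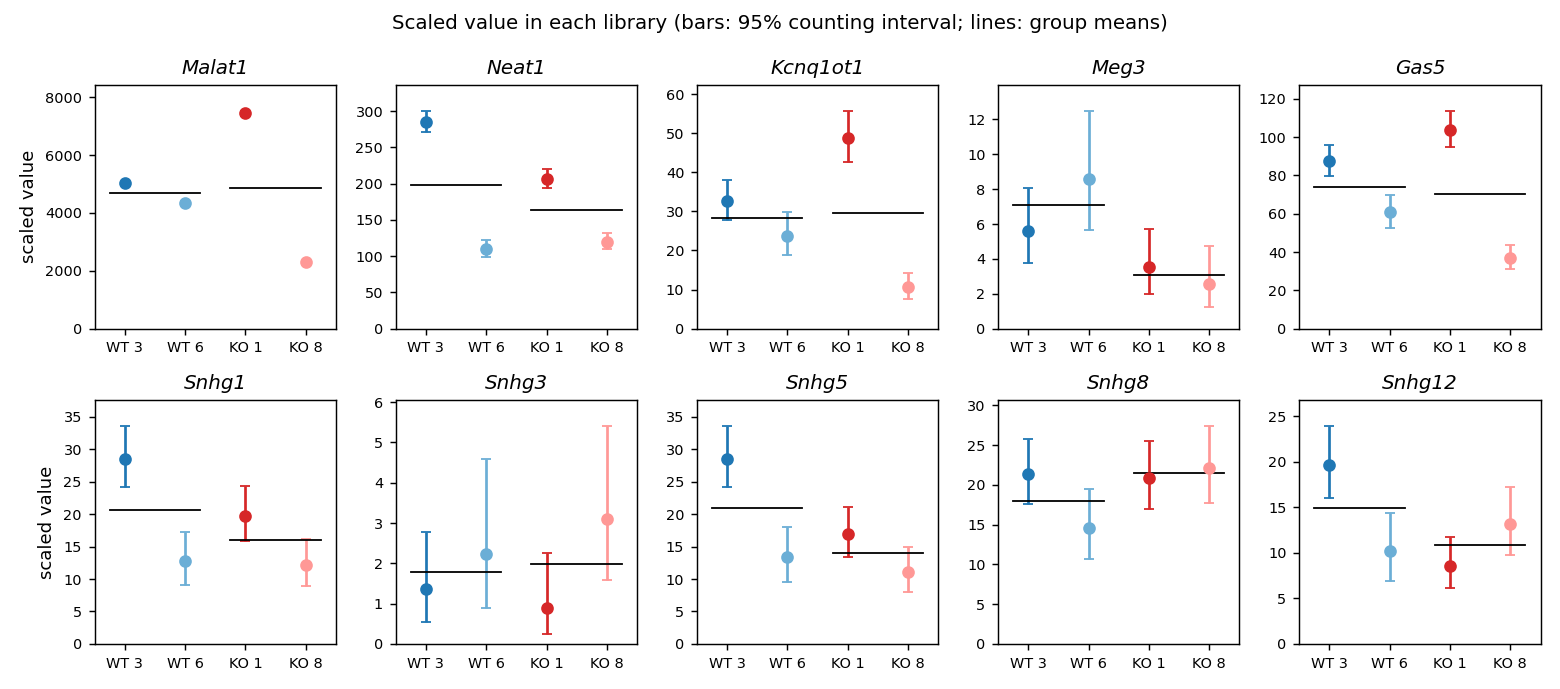
Scaled value of each of the 10 members in WT 3, WT 6, KO 1 and KO 8 (points), with the 95% Poisson interval of its reads (bars) and the mean of each pair (lines); each panel has its own linear axis from 0. Malat1, Kcnq1ot1 and Gas5 are highest in KO 1 and lowest in KO 8, and Meg3 is lower in both KO libraries.

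Among the snoRNA hosts, Gas5, a growth arrest transcript with 10 genes of snoRNA type annotated in its body, had the most reads. Its scaled value was 87.6 in WT 3, 60.7 in WT 6, 104 in KO 1 and 37.1 in KO 8, the order of Malat1 and Kcnq1ot1. That order of the 4 libraries was found in 863 of the 12304 genes tested (7.01%). Snhg5 had 28.6, 13.3, 16.9 and 11.1, and Snhg1 had 28.6, 12.7, 19.8 and 12.1, both highest in WT 3 and lowest in KO 8. Snhg12 was again highest in WT 3, at 19.7, with 10.2 in WT 6, 8.58 in KO 1 and 13.1 in KO 8. The suprabasal marker sum, also highest in WT 3, stood at 12175, 3324, 2573 and 137, and its part in these host values was not tested. For each of these 4 hosts the pair of WT libraries, the KO libraries or both differed by more than the group means did.

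Snhg8, the host of the H/ACA snoRNA Snora24, varied least of the 10. Its scaled value was 21.4 in WT 3, 14.6 in WT 6, 20.9 in KO 1 and 22.2 in KO 8, a 1.52-fold range over 46 to 111 reads. The KO libraries were within 1.06-fold of each other, and WT 3 lay between them. Snhg3 was at the edge of detection, with 1.35, 2.22, 0.880 and 3.09 on 7, 7, 4 and 12 reads, and the Poisson intervals of all 4 libraries overlapped. Gm17300, on the opposite strand, covers 71.5% of the annotated exon bases of Snhg3, and Rcc1, on the same strand, shares 13.7% of them, so the reads of Snhg3 are uncertain.

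Of the snoRNA genes listed inside these hosts, a pair in Snhg3 had far more reads than its host in every library. Snord22, in Snhg1, did so in KO 8 alone, and the others stayed below their host. GENCODE M21 places 28 genes of snoRNA type within the 6 hosts, among them 1 in Gas5 that bears the microRNA symbol Mir5117, and the deposited table lists 5 of them. A pair of H/ACA snoRNAs inside Snhg3, Snora73a and Snora73b, copies of the U17 snoRNA that takes part in processing of 18S ribosomal RNA, is shown with Snord22, a box C/D snoRNA inside Snhg1, because their reads departed from those of the host. Capitals mark the ACA near the 3′ end of the H/ACA copies and, in Snord22, the last CTGA, the letters of box D. They lie on GRCm38 at chr4:132352775-132352979 (Snora73a, minus strand), chr4:132352322-132352526 (Snora73b, minus strand) and chr19:8725866-8725991 (Snord22, plus strand), with the sequence taken from GENCODE M21.
Snora73a: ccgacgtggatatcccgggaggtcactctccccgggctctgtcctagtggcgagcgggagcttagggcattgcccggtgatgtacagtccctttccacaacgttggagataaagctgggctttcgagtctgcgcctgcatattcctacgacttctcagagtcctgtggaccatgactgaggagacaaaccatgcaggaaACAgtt
Snora73b: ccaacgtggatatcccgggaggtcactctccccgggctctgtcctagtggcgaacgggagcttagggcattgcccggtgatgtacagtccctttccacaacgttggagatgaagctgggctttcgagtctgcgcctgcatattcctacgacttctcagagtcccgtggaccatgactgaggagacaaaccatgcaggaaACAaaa
Snord22: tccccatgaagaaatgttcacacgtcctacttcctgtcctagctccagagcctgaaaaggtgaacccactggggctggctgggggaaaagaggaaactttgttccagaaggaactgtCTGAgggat
Snora73b had 12835 reads in WT 3, 4383 in WT 6, 8308 in KO 1 and 5537 in KO 8, where its host Snhg3 had 4 to 12. Snora73a had 12430, 4245, 5636 and 2952 reads. Of its 205 bases, 159 are annotated as Snhg3 exon, against 0 for Snora73b. Reads of Snora73a and of its host thus cannot be fully told apart. The copies differ at 7 of 205 bases, and the sources used here do not say how shared reads were divided, so the split between them is uncertain. Snord22 had 12, 10 and 11 reads in WT 3, WT 6 and KO 1 and 504 in KO 8, while Snhg1 had 148, 40, 90 and 47. Per Snhg1 read this is 0.0811, 0.250 and 0.122 in the first 3 libraries and 10.7 in KO 8. All 126 bases of Snord22 are annotated as Snhg1 exon, so reads of the snoRNA and of its host cannot be fully told apart. KO 1 lay with the WT libraries, and KO 8 alone was high. Snora44 and Snora61, inside Snhg12, had at most 6 reads in any library.

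Between the WT and KO tumours, no member passed the test. In limma's test across all 12304 genes, 0 of the 10 passed an adjusted p of 0.05 in either direction, where 0.00813% of all genes tested passed, and 0 of the 10 reached an unadjusted p of 0.05, which 5.25% of all genes did (3.62% lower and 1.63% higher in KO). On the recovered reads, 0 members passed the adjusted threshold in edgeR's quasi-likelihood test, where 0 of 10332 genes passed and 5.03% had an unadjusted p under 0.05. In edgeR's exact test 0 members passed beside 0.465% of all genes (6.04% at an unadjusted p under 0.05), and in DESeq2 0 members beside 0.462% (5.54%). Meg3 had the largest difference, a log2 fold change of −0.98 (SE 0.51, 95% interval −2.18 to 0.21, limma adjusted p = 0.926), with 0.382 as the smallest and 1.0 as the largest adjusted p over the alternatives tried. These differences are on the log2(value + 1) scale, which understates changes of low genes. In the authors' deposited table Meg3 has a log2 fold change of −1.20 and an adjusted p of 0.825, and the other members have adjusted p-values of 0.999.

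The intervals of the other members were wide on either side of 0. Malat1 differed by −0.17 (SE 0.71, 95% interval −1.84 to 1.49, limma adjusted p = 0.998), so its interval spans a decrease of 3.57-fold and an increase of 2.80-fold. Gas5 differed by −0.23 (SE 0.57, 95% interval −1.57 to 1.11), Kcnq1ot1 by −0.27 (−1.92 to 1.38) and Neat1 by −0.17 (−1.53 to 1.19). Snhg8 had the narrowest interval, −0.77 to 1.31 around 0.27. Snhg5 differed by −0.48, Snhg12 by −0.39, Snhg1 by −0.29 and Snhg3 by 0.011. Of the 10, 8 were lower and 2 higher, with a median of −0.25, beside 6454 lower, 5850 higher and a median of −0.033 over all genes tested.

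**Figure D3:**
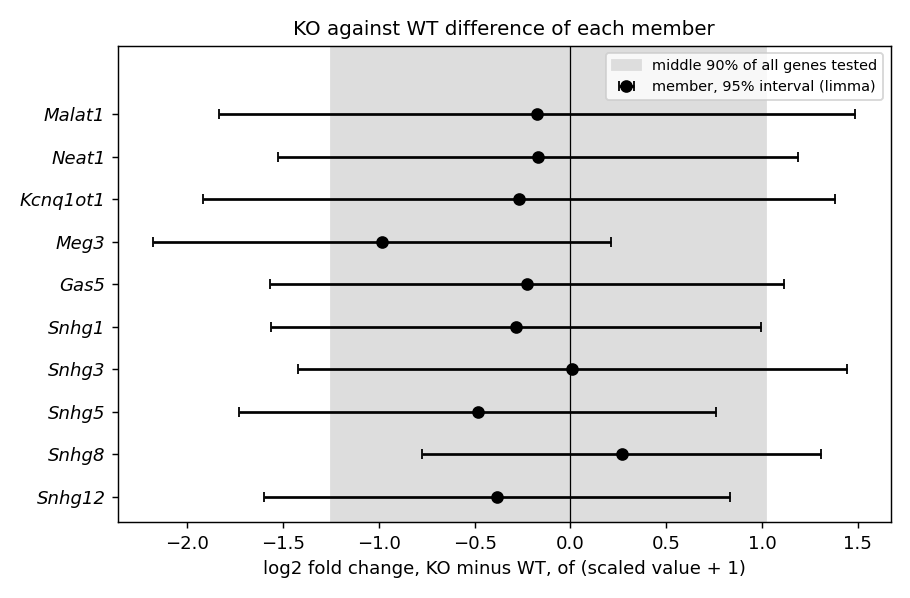
Log2 fold change of KO minus WT on the log2(scaled value + 1) scale (points) with the 95% interval from limma (bars), n = 2 libraries per group; the grey band holds the middle 90% of all genes tested, from −1.25 to 1.02. Every member's interval includes 0, and that of Meg3 reaches from −2.18 to 0.21.

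The direction of most members differed between the libraries of a pair. Without KO 8 the log2 fold changes of Malat1, Kcnq1ot1 and Gas5 were 0.67, 0.79 and 0.50, and without KO 1 they were −1.02, −1.32 and −0.96. The sign of Malat1 also differed between settings, at −0.13 with TMM factors, 0.10 after quantile normalization and 0.088 in edgeR's quasi-likelihood test. For Neat1, Snhg1 and Snhg5 the WT libraries were far apart, with WT 6 minus WT 3 at −1.37, −1.11 and −1.04. Without WT 3 their KO minus WT differences were 0.51, 0.27 and 0.037, and without WT 6 they were −0.85, −0.84 and −1.01. Meg3 was negative and Snhg8 positive whichever library was left out, at −1.25 to −0.71 and 0.0059 to 0.53. For Meg3 this sign follows from groups that did not overlap, as in 33.7% of all genes tested, so it adds nothing to that. The share of all genes that keep their sign was not computed.

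Genes whose 4 values were most like those of Malat1 were sought among genes with a mean log2 value over 5, by the distance between values centred on their own mean. The nearest was Luc7l2, a homolog of a yeast U1 snRNP splicing protein, at a distance of 0.0150 in log2 units, with scaled values of 173, 151, 260 and 79.6 in WT 3, WT 6, KO 1 and KO 8. The second was Srrm2, a scaffold protein of nuclear speckles, with 551, 544, 861 and 259 (distance 0.141), and the third Bclaf1, an RNA-associated nuclear protein, with 119, 94.0, 155 and 48.4 (0.144). Among the members Gas5 lay at 0.281, Kcnq1ot1 at 0.349 and Neat1 at 1.04 from Malat1. For Gas5 the nearest were Rsf1, a chromatin remodelling subunit (0.0740), Dcaf8, a ubiquitin ligase adaptor (0.0818), and Tmem63b, a membrane ion channel (0.0874), whereas Snhg5 lay at 0.773 and Snhg8 at 1.20. With 4 libraries such a likeness is a description, and it rests mainly on KO 1 being high and KO 8 low.

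**Figure D4:**
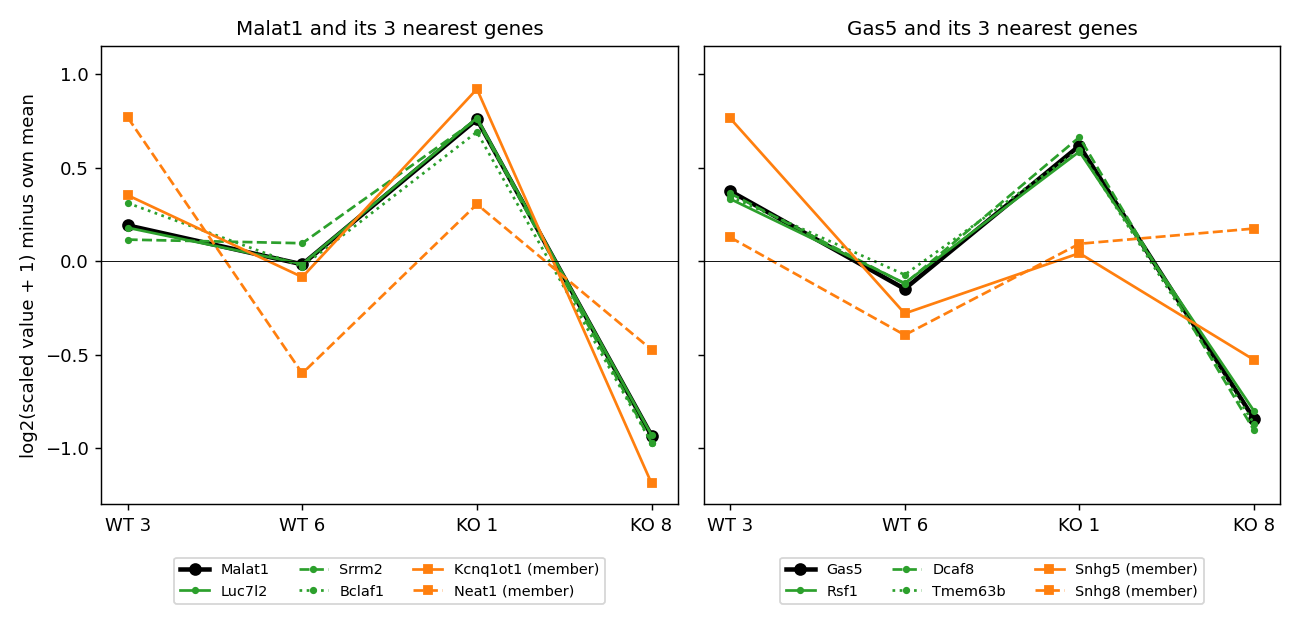
Log2(scaled value + 1) minus the gene's own mean in each of the 4 libraries for Malat1 (left) and Gas5 (right), for the 3 genes nearest to each (green) and for a pair of members each (orange). The green lines lie on the black ones, at distances of 0.0150 to 0.144 for Malat1, while Neat1 (1.04) and Snhg8 (1.20) depart.

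The proteins that reside with these RNAs were taken as lists. Of the 14 nuclear speckle proteins, 0 passed limma's threshold and 0 had an unadjusted p under 0.05. In this list 10 were lower in KO and 4 higher, with a median log2 fold change of −0.099, which turned to 0.084 after quantile normalization. As for Malat1, the list's median was above the WT mean in KO 1, at 0.17, and below it in KO 8, at −0.60. The member with the smallest p was Srsf2, a splicing factor, at 201 and 96.6 in WT and 73.2 and 71.9 in KO (limma adjusted p = 0.926). Srsf7, of the same family, had 56.0 and 47.7 against 43.3 and 32.2. Pnn, the speckle protein pinin, had 86.5 and 77.2 in WT, 182 in KO 1 and 62.1 in KO 8.

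Paraspeckle proteins, the partners of Neat1, were lower in KO for 10 of 12 genes, with a median of −0.45 (−0.16 after quantile normalization), and 0 passed limma's threshold or had an unadjusted p under 0.05. Their median was −0.035 in KO 1 and −0.94 in KO 8, and 11 of the 12 were lowest in KO 8. Rbm14 had 29.1 and 49.9 in WT, 28.1 in KO 1 and 10.3 in KO 8. Hnrnpk, the hnRNP K protein that takes part in Neat1 processing, was at 511 and 440 in WT against 316 and 230 in KO. Sfpq, a core paraspeckle protein, had 234 and 294 in WT, 256 in KO 1 and 108 in KO 8. In 3 of the 12 genes both KO libraries lay below both WT libraries, as in 19.3% of all genes tested.

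The snoRNP proteins, which package the snoRNAs, were lower for 8 of 12 genes, with a median of −0.41, and 0 passed limma's threshold or had an unadjusted p under 0.05. Fbl, the methyltransferase fibrillarin of box C/D particles, was at 36.5 and 44.5 in WT against 25.3 and 21.9 in KO. Nop58, its partner in the same particle, went the other way, with 25.7 and 34.3 in WT against 34.5 and 41.0 in KO. Nop10, of the H/ACA particle, had 20.1 and 10.5 against 11.9 and 5.93. Of the 10 nonsense-mediated decay factors, which destroy spliced host RNA, 6 were higher and 4 lower, with a median of 0.045 (0.12 after quantile normalization) and 0 past the threshold or at an unadjusted p under 0.05. Upf3a was at 15.8 and 14.6 in WT against 18.9 and 36.6 in KO, and Smg8 had 7.53 and 4.77 against 3.08 and 2.84.

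The hosts, of which 4 of 6 held a run at their start, were next set beside messenger RNAs classed as TOP. Ribosomal protein genes were lower in KO for 78 of 79 tested genes, with a median of −0.70, and in 58 of them both KO libraries lay below both WT libraries, beside 19.3% of all genes. None of the 79 passed limma's threshold, and 11 had an unadjusted p under 0.05, beside 5.25% of all genes tested. Their median was −0.45 in KO 1 and −1.08 in KO 8, and 74 were lowest in KO 8. Rps9, of the small subunit, was at 649 and 771 in WT against 317 and 196 in KO. Translation factors of the same class were lower for 13 of 14 genes, with a median of −0.63, 0 past limma's threshold and 2 at an unadjusted p under 0.05, among them Eef2, the elongation factor, at 2171 and 2514 in WT against 1261 and 599 in KO. The median of the 6 hosts was −0.077 in KO 1 and −0.36 in KO 8, and 0 of the 6 lay below both WT libraries in both KO libraries. For each 1000 reads of ribosomal protein genes there were 11.8 host reads in WT 3, 5.48 in WT 6, 13.2 in KO 1 and 11.9 in KO 8. Both KO values were above both WT values, KO 8 by a small margin over WT 3. The groups overlapped for Gas5 taken alone, with 5.53, 2.92, 8.04 and 4.47 reads per 1000, and for the other 5 hosts summed, with 6.28, 2.56, 5.20 and 7.42. With 2 libraries a group the smallest p of an exact two-sided permutation test is 0.333, so these ratios were not tested, and the difference between hosts and ribosomal protein genes was not tested.

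**Figure D5:**
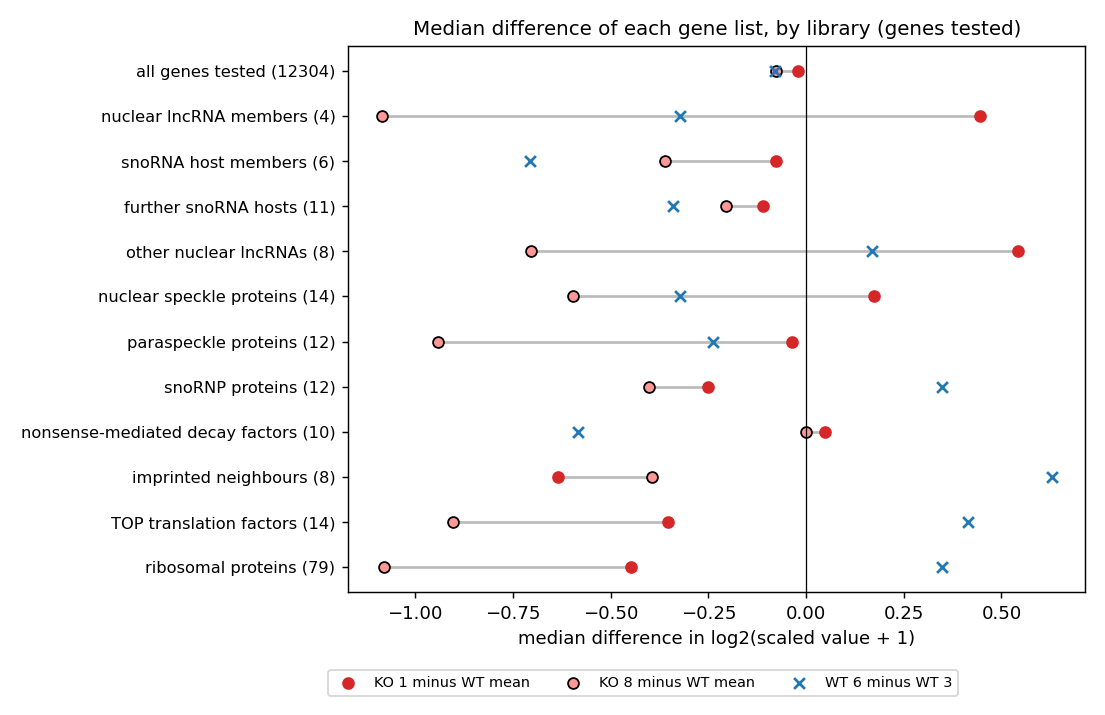
Median difference in log2(scaled value + 1) over the tested genes of each list (number in parentheses), for KO 1 and KO 8 against the WT mean (red and pink circles) and for WT 6 against WT 3 (blue crosses). The 4 nuclear RNAs lie at 0.45 in KO 1 and −1.09 in KO 8, the 6 hosts at −0.077 and −0.36, and ribosomal protein genes below 0 in both KO libraries.

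Of 17 further genes taken as snoRNA hosts and related RNAs, 13 were listed and 11 table rows tested, a pair of them for Dancr. The list also holds Rmrp and Mir17hg, a microRNA host, which are not snoRNA hosts. In KO 5 rows, Rmrp among them, were higher and 6, Mir17hg among them, lower, with a median of −0.090, 0 past limma's threshold and 0 at an unadjusted p under 0.05. Zfas1 was at 23.0 and 17.2 in WT against 17.2 and 15.2 in KO. Snhg4 had 7.72 and 6.67 against 3.30 and 3.86, and Snhg17 had 7.91 and 6.04 against 10.8 and 12.9. Snhg15 had 7.72, 12.4, 9.02 and 7.22, and Snhg6 and Snhg20 lay between 2.58 and 4.44 in each library. Epb41l4aos had 3.28, 6.67, 4.40 and 6.44, and Mir17hg 1.10 to 2.22. The larger Dancr row had 7.34, 2.22, 1.98 and 0, and the smaller 0.579, 0, 1.54 and 1.03. Snhg7, Snhg11 and Snhg18 were too low for testing, with at most 13 reads each in a library. Rmrp, the RNA of the ribonuclease MRP, had 4507, 2991, 3720 and 9221, highest in KO 8.

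Neighbours of the imprinted pair and other nuclear RNAs were also sparse. Of the 14 imprinted neighbours, 8 were tested, 6 of them lower, with a median of −0.31. In limma 0 passed the threshold and 1 had an unadjusted p under 0.05, beside 5.25% of all genes tested. That gene was Cd81, a tetraspanin at the edge of the Kcnq1 domain, with 73.2 and 156 in WT, 59.4 in KO 1 and 18.8 in KO 8 (log2 fold change −1.64, SE 0.65, limma adjusted p = 0.926). Kcnq1, which overlaps Kcnq1ot1 on the opposite strand, had 3.67, 0.318, 0.220 and 0, below the limit for testing. Cdkn1c, a growth inhibitor silenced in this domain, had 0, 1.27, 0 and 3.35, and Rian, in the Meg3 domain, had 1.35, 1.91, 0.440 and 4.64, with KO 8 highest where Meg3 was lowest. Nap1l4 had 53.7, 49.2, 51.2 and 37.6, Tssc4 6.95, 2.86, 3.08 and 3.35, Slc22a18 1.54, 4.13, 1.76 and 0.773, Ascl2 1.16, 3.18, 0.880 and 0, and Phlda2 2.70, 1.91, 0.220 and 6.44. Rtl1 was at or below 1.27 in each library.

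Of the 8 other nuclear long noncoding RNAs tested, 6 were lower and 2 higher, with a median of −0.082, 0 past limma's threshold and 1 at an unadjusted p under 0.05. That one was H19, an imprinted RNA abundant in fetal tissue and muscle, with 2.12 in WT 3, 25.4 in WT 6, 25.3 in KO 1 and 221 in KO 8 (log2 fold change 3.07, limma adjusted p = 0.926). The skeletal muscle marker sum was 6.37, 27.0, 24.8 and 462 in the same libraries, and its part in the H19 values was not tested. Firre, an RNA of nuclear organisation, had 52.7, 32.1, 67.1 and 11.1, the order of Malat1. Xist had 0.515 to 5.40. Of the 294 tested genes of long noncoding RNA types outside the 10, 0 passed limma's threshold. An unadjusted p under 0.05 was reached by 12, beside 5.25% of all genes tested. The median of the 294 was −0.078, at 0.030 in KO 1 and −0.27 in KO 8. The 4 nuclear RNAs, at 0.45 and −1.09, were farther apart in the same directions, as were the 8 other nuclear RNAs, at 0.54 and −0.70. Among the 4, Meg3 went the other way in KO 1, at −0.81. These differences were not tested.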

How the data were processed

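Per the labels' protocols, Trizol was used to extract RNA from frozen tumours and a TruSeq kit to build libraries. The authors deposited 1 signal value per gene and library, and each was a whole multiple of 1 step per library, so reads were recovered for 100.0% of values (tolerance 0.001). DESeq and build mm9 are named in the submitters' processing notes, without role or version, and the sources used here give no aligner, counter or strand. The authors also deposited log2 fold changes and p-values of an unnamed test.

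The design called for edgeR if the table held counts. It holds scaled values, so limma 3.58.1 (R 4.3.3, trended prior, two-sided) was run on log2(value + 1) for the 12304 genes that reached a value of 1 in 2 or more libraries, with Benjamini-Hochberg adjustment over all of them and a threshold of 0.05. EdgeR 4.0.16 and DESeq2 1.42.0 on the recovered reads were alternatives, with quantile normalization, TMM factors over nuclear protein-coding genes, no trend, no filter, a pseudocount of 0.1 and each library left out. The code was tested on simulated data. Exon lengths came from GENCODE M21 (14128 of 14157 genes matched by Ensembl ID), of which only lengths and overlaps were used with the mm9 values, and start windows from RefSeq (9 of 10 members matched). Ribosomal protein genes were taken by symbol, 78 of 81 of them protein-coding. In lists, up to 4 members by smallest p were named, with all further hosts and imprinted neighbours. The members and lists were chosen with earlier results of these data known, and the run of C and T at the start sites was defined with the sequences in view. Genes like Malat1 or Gas5 were the 3 nearest by distance. Pnn and Nop58 fall outside this rule and were named after their values were seen. Poisson and exact binomial intervals (95%) cover counting error only.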

Additional observations from a re-analysis of the deposited data

How the results depend on the processing

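No member passed the adjusted threshold in any of the 118 fits of a member under an alternative, 21 of which gave the other sign. Among the settings that kept all libraries, Malat1 changed sign to 0.10 with quantile normalization, 0.088 in both edgeR tests and 0.10 in DESeq2, Neat1 to 0.067 with quantile normalization, Kcnq1ot1 to 0.11 in both edgeR tests and 0.12 in DESeq2, and Snhg3 to −0.054 with a pseudocount of 0.1; edgeR's filter left Snhg3 out. Leaving out 1 library, in fits where the lone library is assumed to vary like the other pair, gave ranges of −1.02 to 0.67 for Malat1, −0.85 to 0.51 for Neat1, −1.32 to 0.79 for Kcnq1ot1, −0.96 to 0.50 for Gas5, −0.84 to 0.27 for Snhg1, −0.55 to 0.57 for Snhg3, −1.01 to 0.037 for Snhg5 and −0.83 to 0.060 for Snhg12. The median of the members ranged from −0.69 to 0.13. Over all genes limma called 0 higher and 1 lower; no filter gave 2 lower, a pseudocount of 0.1 and edgeR's quasi-likelihood test 0 lower, the exact test of edgeR 16 in the higher and 32 in the lower direction, and DESeq2 22 and 32. With 1 library left out the counts ranged from 0 to 203 higher and from 0 to 307 lower, the largest of each without KO 1. List medians ranged over the libraries left out from −0.21 to 0.023 for further hosts, −0.40 to −0.081 for snoRNP proteins, −0.94 to −0.035 for paraspeckle proteins, −0.60 to 0.17 for nuclear speckle proteins, −0.090 to 0.40 for decay factors, −0.63 to −0.14 for imprinted neighbours, −0.70 to 0.54 for other nuclear RNAs, −1.08 to −0.45 for ribosomal proteins and −0.90 to −0.35 for translation factors. The median of further hosts was −0.054 with quantile normalization, −0.053 with TMM factors and −0.11 with a pseudocount of 0.1, and that of imprinted neighbours −0.25 with quantile normalization and −0.59 with that pseudocount. Quantile normalization turned the nuclear speckle median from −0.099 to 0.084 and gave −0.16 for paraspeckle proteins, 0.12 for decay factors, −0.47 for ribosomal proteins and −0.46 for translation factors. DESeq2 gave a member median of −0.12. The causes of these shifts were not tested. No paired analysis was possible because the groups share no replicate number. Depth limits Snhg3 and Meg3 most, at 4 to 29 reads per library.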
